A study of Rattus norvegicus with 23 samples.

Results

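The CXC chemokines measured here are 9 genes, Cxcl1, Cxcl2, Cxcl3, Cxcl6, Cxcl9, Cxcl10, Cxcl11, Cxcl12 and Cxcl16, of 14218 genes that a single-gene probe set represents. They were taken by gene name, and 16 probe sets name one of them and no other gene. For each gene 1 probe set was used, chosen by its highest mean over 23 arrays, and 7 other probe sets of Cxcl3, Cxcl9 and Cxcl12 were kept as a second reading. The arrays, Affymetrix chips read after amplification of the RNA, cover 8 groups of primary rat liver cells. At day 12, hepatocytes were sampled from a hepatocyte-only monolayer (HM), from hepatocytes held between collagen layers (a collagen sandwich, CS), from a membrane-based 3D culture with liver sinusoidal endothelial cells (LSECs), named 3DHL, and from the same culture with Kupffer cells (KCs) added, named 3DHLK. An LSEC fraction was taken from each 3D culture and a KC fraction from 3DHLK on the same day, and KC monolayers were sampled at day 3, before KCs entered the 3D culture. There are 3 arrays in every group but the KC fraction, which has 2 because only those passed the authors' check of RNA quality. Hepatocytes and LSECs were isolated together from female Lewis rats, whereas the KCs were purchased frozen. The labels do not say that replicates came from separate animals, so p-values measure the spread between these arrays, which may be technical.

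Within the 3D models the fractions are defined by bead capture with antibodies to SE-1 for LSECs and CD163 for KCs, and hepatocytes are what was left. The markers separate the captured fractions from hepatocytes only in part, and not in the way the labels do. The mean of 19 hepatocyte markers was 12.93 to 12.94 (log2) on the LSEC arrays of 3DHL, beside 12.48 to 12.57 in hepatocytes of 3DHL. In 3DHLK it was 13.09 to 13.13 on the LSEC arrays, 12.29 to 12.36 on the KC arrays and 12.55 to 12.73 in hepatocytes. KC monolayers were at 6.97 to 7.62. Of the 19 markers 6 were higher in hepatocytes of 3DHLK than in the KC fraction and 1 was lower (limma, adjusted p under 0.05). The sinusoidal scavenger receptor Stab2 was at 5.85 ± 0.04 (SD, n = 3) in the LSEC fraction and 5.69 ± 0.13 (n = 3) in hepatocytes of 3DHL. In 3DHLK it was higher in the LSEC fraction, at 5.98 ± 0.05 (n = 3), than in hepatocytes, at 5.46 ± 0.13 (n = 3). The KC fraction had the highest value, at 6.36 ± 0.11 (n = 2). Cd163, the gene of the capture antigen, was at 7.15 ± 0.16 (n = 2) in the KC fraction, 8.37 ± 0.08 (n = 3) in hepatocytes of 3DHLK and 10.63 ± 0.39 (n = 3) in KC monolayers. The Kupffer cell lectin gene Clec4f was higher in the KC fraction, at 6.63 ± 0.21 (n = 2), than in hepatocytes of 3DHLK, at 5.74 ± 0.19 (n = 3). KC monolayers were at 11.61 ± 0.14 (n = 3). The groups below are therefore called fractions by their labels. In such bulk samples fewer cells of a type and less RNA per cell cannot be told apart. Replicate arrays correlated at 0.987 to 0.998 over all probe sets, and those of KC monolayers at 0.942 to 0.969.

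CXC chemokines are small secreted proteins that guide leukocytes through G protein-coupled receptors. Cxcl1, Cxcl2, Cxcl3 and Cxcl6 (the gene also listed as Cxcl5) bind Cxcr2 and attract neutrophils, and NF-kB induces them during inflammation. Cxcl9, Cxcl10 and Cxcl11 are induced by interferons and draw activated T cells through Cxcr3. Cxcl12 retains cells that carry Cxcr4 and is also taken up by Ackr3, and Cxcl16 is made as a transmembrane protein whose receptor is Cxcr6.

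The RefSeq assembly GRCr8 places the family in several clusters. On chromosome 14, Cxcl11, Cxcl10 and Cxcl9 are direct neighbours, Cxcl2 lies next to Cxcl1, and Cxcl3 lies next to the platelet chemokine gene Pf4. Cxcl12 is on chromosome 4 and Cxcl16 on chromosome 10. Promoters from 250 bases before to 50 bases after the transcription start were held in the RefSeq table for 8 of the 9 genes, all but Cxcl3. The following 4 are shown because Cxcl1 and Cxcl2 moved together and Cxcl10 and Cxcl11 moved together over the groups, as described further on. Capitals mark matches to the NF-kB consensus on either strand and, in Cxcl10, also the core of the interferon-stimulated response element. The windows, on GRCr8, are chr14:17479272-17479571 on the minus strand for Cxcl1, chr14:17467206-17467505 on the minus strand for Cxcl2, chr14:15988816-15989115 on the plus strand for Cxcl10 and chr14:15973478-15973777 on the plus strand for Cxcl11.
Cxcl1: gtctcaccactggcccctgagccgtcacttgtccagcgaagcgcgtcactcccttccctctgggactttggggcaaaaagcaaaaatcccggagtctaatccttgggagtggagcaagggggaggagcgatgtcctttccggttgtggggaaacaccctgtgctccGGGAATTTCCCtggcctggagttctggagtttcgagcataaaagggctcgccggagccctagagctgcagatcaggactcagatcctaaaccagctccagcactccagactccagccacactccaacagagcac
Cxcl2: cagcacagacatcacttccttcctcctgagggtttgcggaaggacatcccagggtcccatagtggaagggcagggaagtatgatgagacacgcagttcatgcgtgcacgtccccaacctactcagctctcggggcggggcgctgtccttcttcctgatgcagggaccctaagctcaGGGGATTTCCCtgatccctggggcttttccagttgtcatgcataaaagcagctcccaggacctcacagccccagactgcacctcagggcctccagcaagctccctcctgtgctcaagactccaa
Cxcl10: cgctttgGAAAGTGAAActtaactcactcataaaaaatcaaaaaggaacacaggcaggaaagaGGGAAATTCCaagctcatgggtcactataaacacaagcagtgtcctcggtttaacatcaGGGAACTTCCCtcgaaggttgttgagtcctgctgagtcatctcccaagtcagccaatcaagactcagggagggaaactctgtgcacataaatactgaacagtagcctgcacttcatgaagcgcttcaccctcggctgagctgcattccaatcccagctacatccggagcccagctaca
Cxcl11: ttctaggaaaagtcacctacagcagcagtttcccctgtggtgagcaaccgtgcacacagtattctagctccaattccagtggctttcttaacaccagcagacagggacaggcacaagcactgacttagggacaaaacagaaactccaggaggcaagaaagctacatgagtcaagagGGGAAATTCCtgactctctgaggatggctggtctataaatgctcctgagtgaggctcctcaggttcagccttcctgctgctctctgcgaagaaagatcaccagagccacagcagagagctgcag

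The NF-kB consensus was matched in 5 of the 8 promoters and in 7.51% of 33469 rat promoters of the same length. Its first base lies 84 bases before the start in Cxcl1, 74 in Cxcl2 and 88 in Cxcl6, the neutrophil-attracting members with a promoter here, and overlapping matches in these promoters form 1 site each. Cxcl10 holds 2 such sites, whose first bases lie 187 and 128 bases before the start, and Cxcl11 holds 1, at 74 bases. The response element core (GAAA, any 2 bases, GAAA, on either strand) was found in Cxcl10, 243 bases before the start, and in 3.92% of all promoters. A gamma-activated site (TTC, any 3 bases, GAA, the same on both strands) was found in Cxcl9 and Cxcl11 and in 8.87% of all promoters. No match to any of these letters was found in Cxcl12 or Cxcl16. A match describes the sequence and is not a measured binding site.

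Values are log2 RMA values, so a difference of 1 is a change of a factor of 2. A gene's values can be compared between groups but not with those of another gene. Cxcl1 was 11.84, 12.11 and 11.63 in the LSEC fraction of 3DHL, 11.75, 12.20 and 11.71 in that of 3DHLK, and 11.75 and 11.79 in the KC fraction. The 3 KC monolayers were at 12.22, 12.10 and 12.24. HM (10.66, 10.40 and 10.38) and the hepatocytes of 3DHL (9.93, 10.45 and 10.18) and 3DHLK (10.53, 10.58 and 10.50) were all lower, and CS at 11.22, 11.41 and 11.27 lay between. Neighbours in the order KC monolayers, LSEC 3DHLK, LSEC 3DHL and KC 3DHLK overlapped, as did the hepatocytes of 3DHLK, HM and 3DHL in their order, while CS overlapped with neither neighbour.

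**Figure D1:**
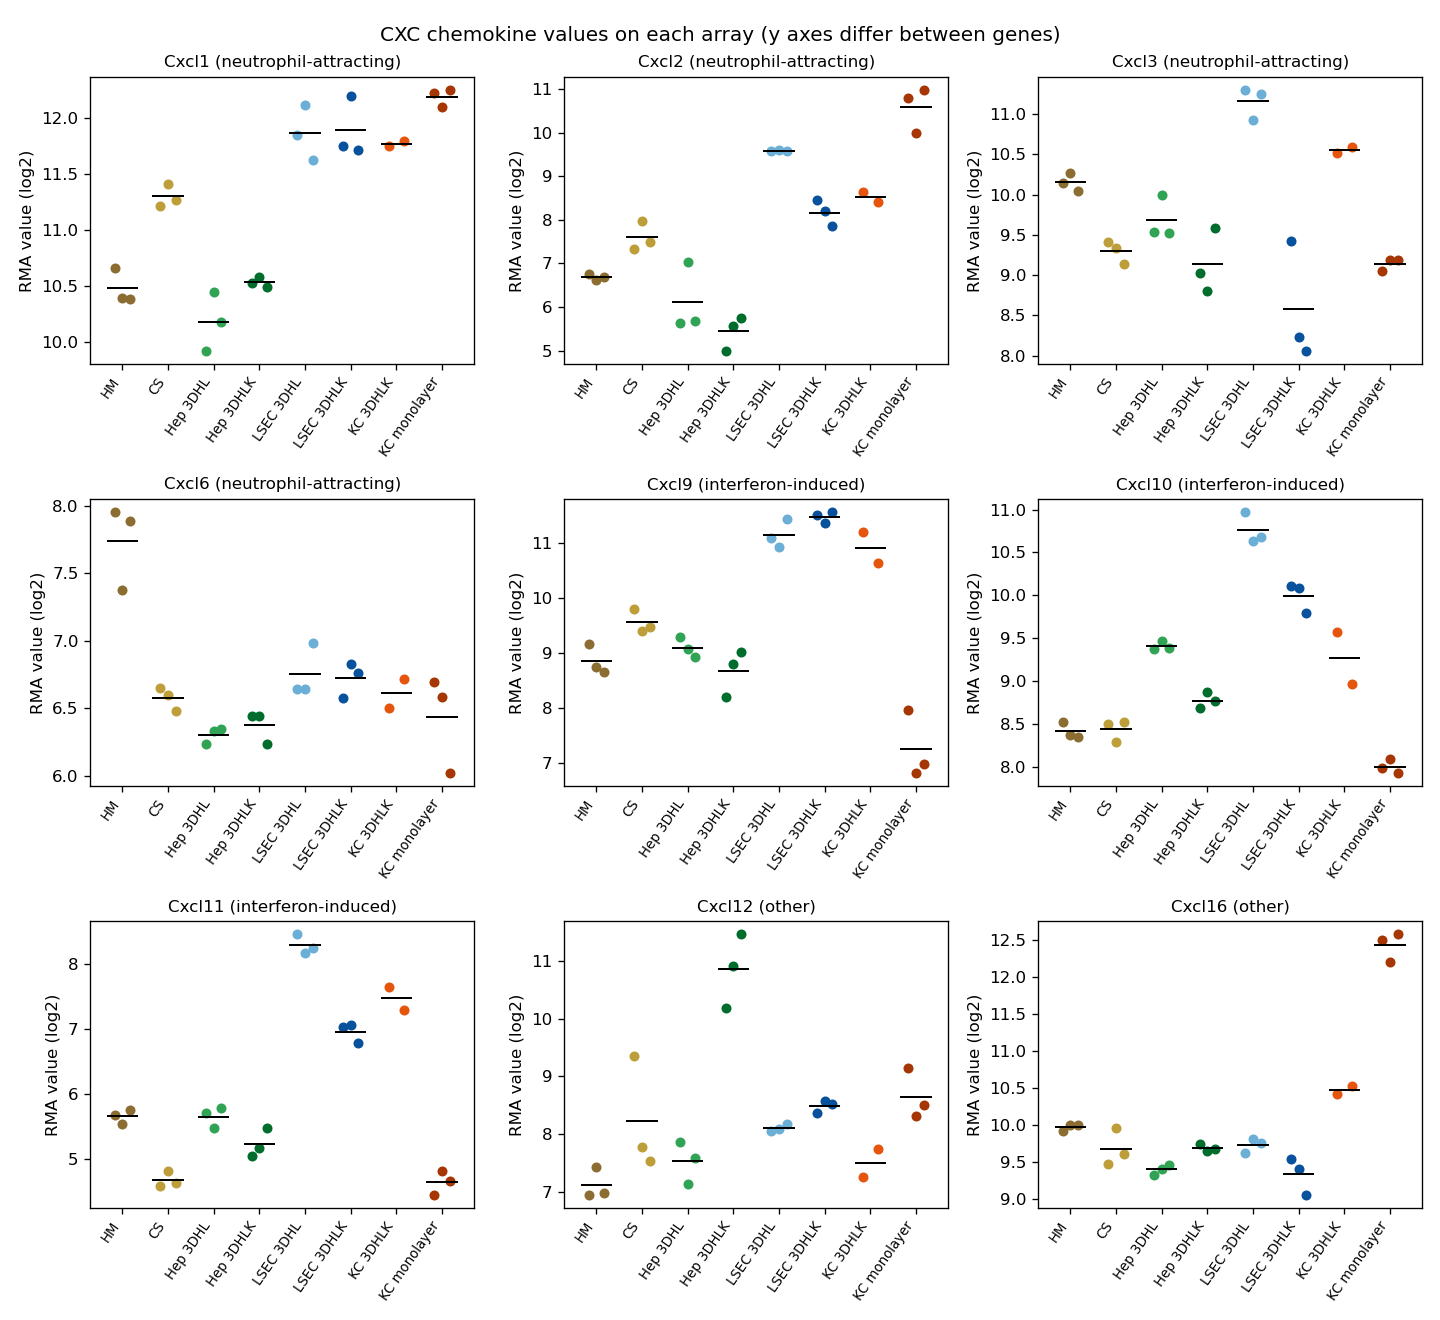
Each panel shows 1 chemokine, with the RMA value on the y axis (log2) and the 8 groups on the x axis, a point for each of the 23 arrays and a black line at each group mean. Cxcl9, Cxcl10 and Cxcl11 are lowest or share the lowest values in KC monolayers, where Cxcl1, Cxcl2 and Cxcl16 have their highest means, and the hepatocytes of 3DHLK stand above all other arrays for Cxcl12.

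Cxcl2 had the widest span of group means of the family, 5.15 on the log2 scale, which is wider than in 97.8% of all genes. KC monolayers were at 10.80, 9.99 and 10.98 and the LSEC fraction of 3DHL at 9.59, 9.61 and 9.57. The hepatocytes of 3DHLK were lowest at 5.002, 5.57 and 5.76. In the hepatocytes of 3DHL 1 array of the 3, at 7.04, stood above the other two at 5.64 and 5.69.

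Cxcl3 followed another order. It was highest in the LSEC fraction of 3DHL (11.30, 10.93 and 11.25) and lowest in that of 3DHLK (9.42, 8.23 and 8.06), so the highest and lowest group means belong to the same labelled cell type. The KC fraction was at 10.52 and 10.59, above KC monolayers at 9.05, 9.19 and 9.19. HM arrays, at 10.14, 10.27 and 10.05, overlapped with neither neighbour in the order.

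Cxcl6 varied least, with a span of 1.43. HM was at 7.95, 7.37 and 7.88, above all other arrays, and the remaining 7 group means lay between 6.31 in hepatocytes of 3DHL and 6.76 in the LSEC fraction of 3DHL. Each neighbouring pair among these 7 overlapped.

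Cxcl9 was at 11.11, 10.93 and 11.44 in the LSEC fraction of 3DHL, at 11.52, 11.38 and 11.57 in that of 3DHLK and at 11.21 and 10.64 in the KC fraction. KC monolayers at 7.97, 6.83 and 6.99 were below all other arrays. The 4 hepatocyte groups had means of 8.68 to 9.57.

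Cxcl10 was 10.97, 10.63 and 10.68 in the LSEC fraction of 3DHL and 10.11, 10.08 and 9.80 in that of 3DHLK. The hepatocytes of 3DHL (9.37, 9.46 and 9.39) overlapped with the KC fraction (9.58 and 8.97). KC monolayers were again lowest, at 7.99, 8.09 and 7.94, and overlapped with no other group.

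Cxcl11 was 8.47, 8.18 and 8.26 in the LSEC fraction of 3DHL, 7.66 and 7.29 in the KC fraction and 7.03, 7.07 and 6.79 in the LSEC fraction of 3DHLK. These 3 groups did not overlap with each other. CS (4.59, 4.82 and 4.63) and KC monolayers (4.46, 4.82 and 4.67) were lowest and overlapped.

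Cxcl12 was at 10.19, 10.91 and 11.46 in the hepatocytes of 3DHLK, above all other arrays. The other 7 group means were 7.12 to 8.65. In CS 1 array at 9.36 stood above the other two at 7.78 and 7.54.

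Cxcl16 was at 12.50, 12.20 and 12.58 in KC monolayers and at 10.42 and 10.53 in the KC fraction of 3DHLK. Neither overlapped with another group. The remaining means were 9.33 to 9.97.

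The neutrophil-attracting and the interferon-induced members were set side by side by centring each gene on the mean of its 8 group means and averaging the centred values. KC monolayers stood apart, with a neutrophil-attracting mean 2.35 ± 0.11 (SD, n = 3) above the interferon-induced mean. Their interferon-induced mean was -1.64 and their neutrophil-attracting mean 0.71. The highest neutrophil-attracting mean was in the LSEC fraction of 3DHL, at 0.96. The difference was next highest in HM (0.52 ± 0.04, n = 3) and CS (0.53 ± 0.17, n = 3). The difference was -0.29 ± 0.11 (n = 3) in hepatocytes of 3DHLK, -0.46 ± 0.38 (n = 2) in the KC fraction, -0.58 ± 0.38 (n = 3) in hepatocytes of 3DHL, -0.83 ± 0.13 (n = 3) in the LSEC fraction of 3DHL and -1.24 ± 0.14 (n = 3) in that of 3DHLK. Centring makes the 8 mean differences sum to 0, so their order can be read but their sign depends on the centring. Leaving out any 1 of the 7 genes kept KC monolayers highest, at 1.67 without Cxcl2 to 2.78 without Cxcl3. Without Cxcl2 the hepatocytes of 3DHLK turned to 0.17, and without Cxcl3 or Cxcl9 the LSEC fraction of 3DHL was lowest, at -0.99 and -0.96. The contrast was set with earlier results of these arrays known, so it is a description with no test.

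**Figure D2:**
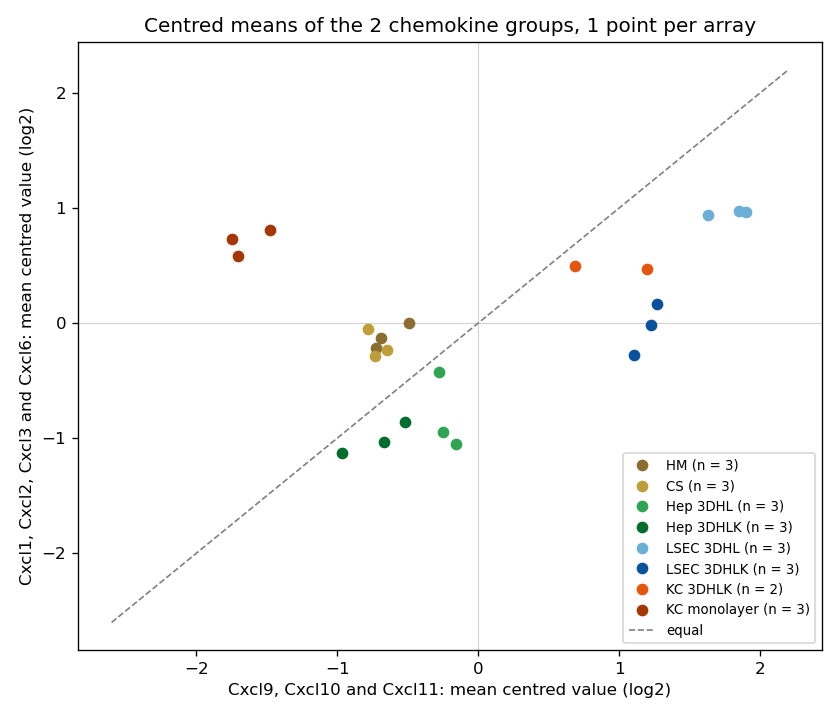
Each point is 1 of 23 arrays, with the mean centred value (log2) of Cxcl9, Cxcl10 and Cxcl11 on the x axis and that of Cxcl1, Cxcl2, Cxcl3 and Cxcl6 on the y axis; colours mark the 8 groups and the dashed line marks equal values. KC monolayers lie far above the line, at a difference of 2.35 on average, and the LSEC fraction of 3DHLK lies farthest below it, at -1.24. KC monolayers average -1.64 on the x axis and 0.71 on the y axis.

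The interferon-induced genes kept together over the 8 group means more than the neutrophil-attracting genes did. Pearson's r was 0.83 for Cxcl9 with Cxcl10, 0.85 for Cxcl9 with Cxcl11 and 0.88 for Cxcl10 with Cxcl11. Cxcl1 followed Cxcl2 (r = 0.92) but not Cxcl3 (r = 0.03) or Cxcl6 (r = -0.16). Across the roles Cxcl1 and Cxcl9 had r = 0.31 over all 8 groups and r = 0.94 over the 7 groups without KC monolayers, so KC monolayers set this pair apart. Leaving out KC monolayers raised r for each pair of Cxcl1 or Cxcl2 with Cxcl9, Cxcl10 or Cxcl11. It lowered r for each such pair of Cxcl3 or Cxcl6, as in Cxcl3 with Cxcl9 (0.32 to 0.20) and Cxcl6 with Cxcl9 (0.08 to -0.09). The points share the normalization over all arrays, and the correlations are descriptions over 8 or 7 means with no test.

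**Figure D3:**
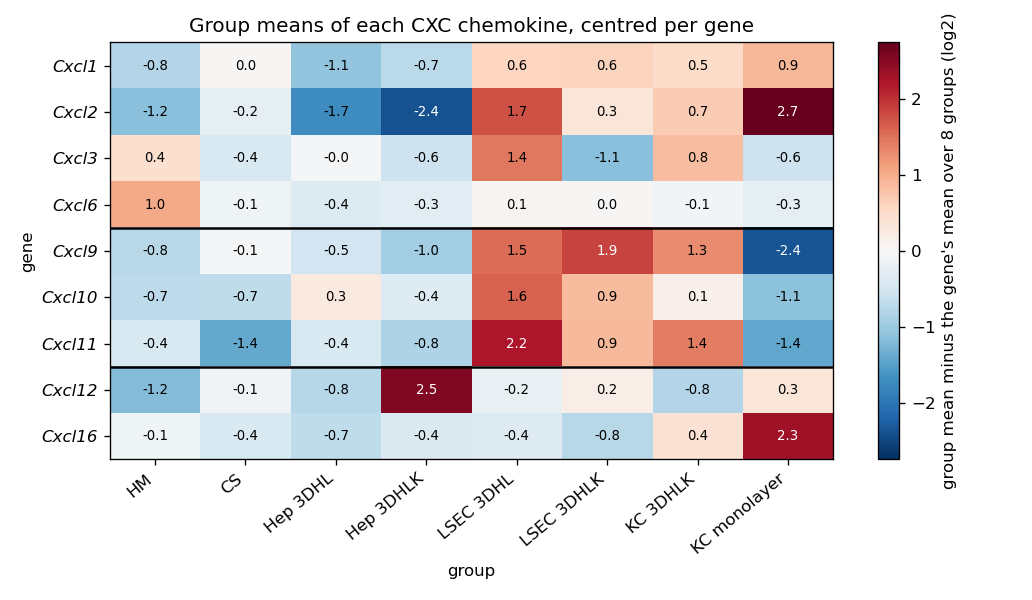
Rows are the 9 chemokines, columns the 8 groups, and each cell gives the group mean minus the gene's mean over the 8 groups (log2), with red above and blue below that mean; black lines part neutrophil-attracting, interferon-induced and other members. The rows of Cxcl9, Cxcl10 and Cxcl11 resemble each other, whereas Cxcl3 and Cxcl6 differ from Cxcl1 and Cxcl2.

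The comparison of LSEC fractions between 3DHLK and 3DHL asks how the fraction differs when KCs are in the model. Cxcl2, Cxcl3, Cxcl10 and Cxcl11 were lower with KCs, so both the neutrophil-attracting and the interferon-induced members were split. Of the 9 genes 4 were lower, where 3.89% of all genes were called lower, and 0 were higher, where 3.58% of all genes were called higher. Cxcl3 had the largest change, -2.59 (standard error 0.25, adjusted p = 7.95e-07), which is 6.01-fold lower. Cxcl2 changed by -1.42 (0.30, adjusted p = 0.00359), Cxcl11 by -1.34 (0.14, adjusted p = 2.65e-06) and Cxcl10 by -0.76 (0.14, adjusted p = 0.00103). Cxcl1 differed by 0.02, with a 95% interval of -0.28 to 0.33, Cxcl6 by -0.03 (-0.37 to 0.31) and Cxcl9 by 0.33 (-0.19 to 0.84). Cxcl12 differed by 0.38 (-0.35 to 1.11) and Cxcl16 by -0.40 (-0.68 to -0.11, adjusted p = 0.0821). The median over the 9 genes was -0.40, and over all genes 0.04.

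Of 13 NF-kB pathway genes 2 were higher and 3 lower. The atypical IkB protein Nfkbiz, a cofactor of NF-kB, was higher by 1.60 (adjusted p = 3.3e-07) and the kinase Chuk by 0.55, whereas the feedback inhibitor Tnfaip3 changed by -0.76 and the subunit Relb by -0.55. Of 22 interferon-stimulated genes 1 was higher, the antiviral synthetase Oas1a at 0.74, and 0 were lower. None of 7 CXC receptors and none of 10 inflammatory cytokine genes was called, by limma at the same threshold. Of 8 genes of chemokine processing and mRNA decay 1 was higher and 2 were lower. Zfp36, whose protein speeds the decay of chemokine mRNAs, was higher by 0.41. Macrophage markers averaged 6.71 to 6.95 on the arrays with KCs and 6.48 to 6.58 on those without, 2 of 17 being higher, and their part in these changes was not tested.

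**Figure D4:**
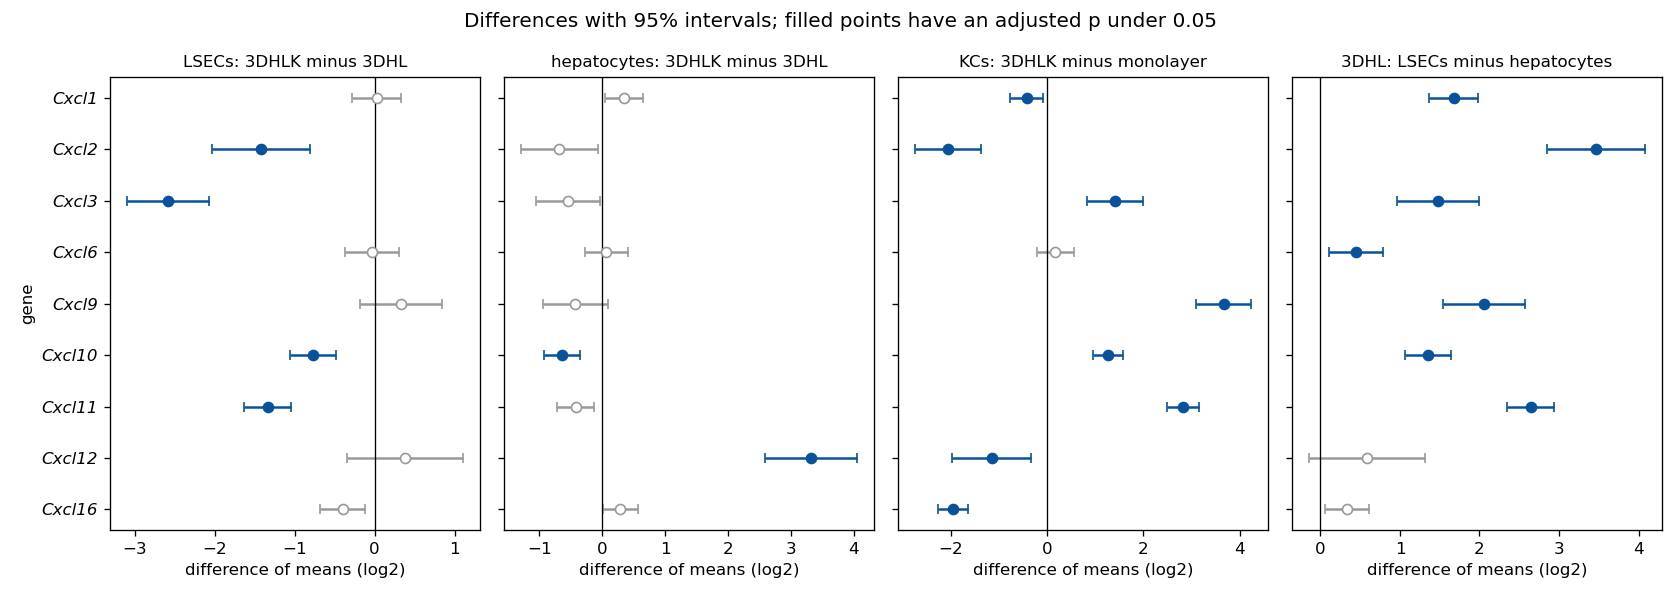
Points are differences of group means (log2, x axis) for the 9 chemokines (y axis) in 4 comparisons, with bars for 95% intervals, filled where the limma adjusted p is under 0.05. Cxcl3 is lower in the LSEC fraction with KCs (-2.59) and higher in KCs of 3DHLK than in monolayers (1.41), and Cxcl12 is higher in hepatocytes with KCs (3.33).

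In hepatocytes the comparison of 3DHLK with 3DHL shared a lower Cxcl10 with the LSEC fractions and added a rise of Cxcl12. Cxcl2, Cxcl3 and Cxcl11, lower in the LSEC fraction, also had negative differences here, which were not called. Cxcl12 rose by 3.33 (standard error 0.35, adjusted p = 3.92e-07), and Cxcl10 changed by -0.63 (0.14, adjusted p = 0.00299). Of the 9 genes 1 was higher, where 7.72% of all genes were called higher, and 1 was lower, where 3.76% were called lower. The other probe sets of Cxcl12 rose by 4.40 and 3.89. Cxcl1 (0.35, 95% interval 0.04 to 0.66), Cxcl2 (-0.68, -1.29 to -0.07), Cxcl3 (-0.55, -1.06 to -0.03) and Cxcl11 (-0.42, -0.71 to -0.13) did not pass the adjusted threshold. Nor did Cxcl6 (0.07, -0.27 to 0.41), Cxcl9 (-0.42, -0.94 to 0.09) or Cxcl16 (0.29, 0.01 to 0.57). Cxcl11 was called lower after averaging probe sets (adjusted p = 0.0448), without KC monolayers (adjusted p = 0.0266) and without hepatocyte replicate 3 of 3DHLK (-0.54, adjusted p = 0.0244). The median over the 9 genes was -0.42, and over all genes -0.08.

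With Cxcl12, some genes of CXC receptors and of other cell types rose in the same hepatocyte arrays. Of 7 CXC receptors 3 were higher and 1 was lower. The scavenging receptor Ackr3 rose by 2.38 (adjusted p = 0.00028), the signalling receptor Cxcr4 by 0.75 and the duffy antigen receptor Ackr1 by 0.90, while Cxcr5 changed by -0.89. Of 8 genes of chemokine processing and mRNA decay 3 were higher and 1 was lower. Mmp2, a protease that can cleave Cxcl12, rose by 3.36. Stellate cell and fibroblast markers averaged 10.14 to 10.35 in hepatocytes of 3DHLK and 8.15 to 8.33 in those of 3DHL, with 11 of 17 higher, and the collagen gene Col1a1 was at 13.01 ± 0.05 (SD, n = 3) against 10.87 ± 0.71 (n = 3). Macrophage markers averaged 7.51 to 7.94 against 6.57 to 6.86, also with 11 of 17 higher. Cd163 was at 8.37 ± 0.08 (n = 3) against 6.89 ± 0.29 (n = 3) and Clec4f, a Kupffer cell lectin, at 5.74 ± 0.19 (n = 3) against 5.85 ± 0.16 (n = 3). The part of these markers in the rise of Cxcl12 was not tested.

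**Figure D5:**
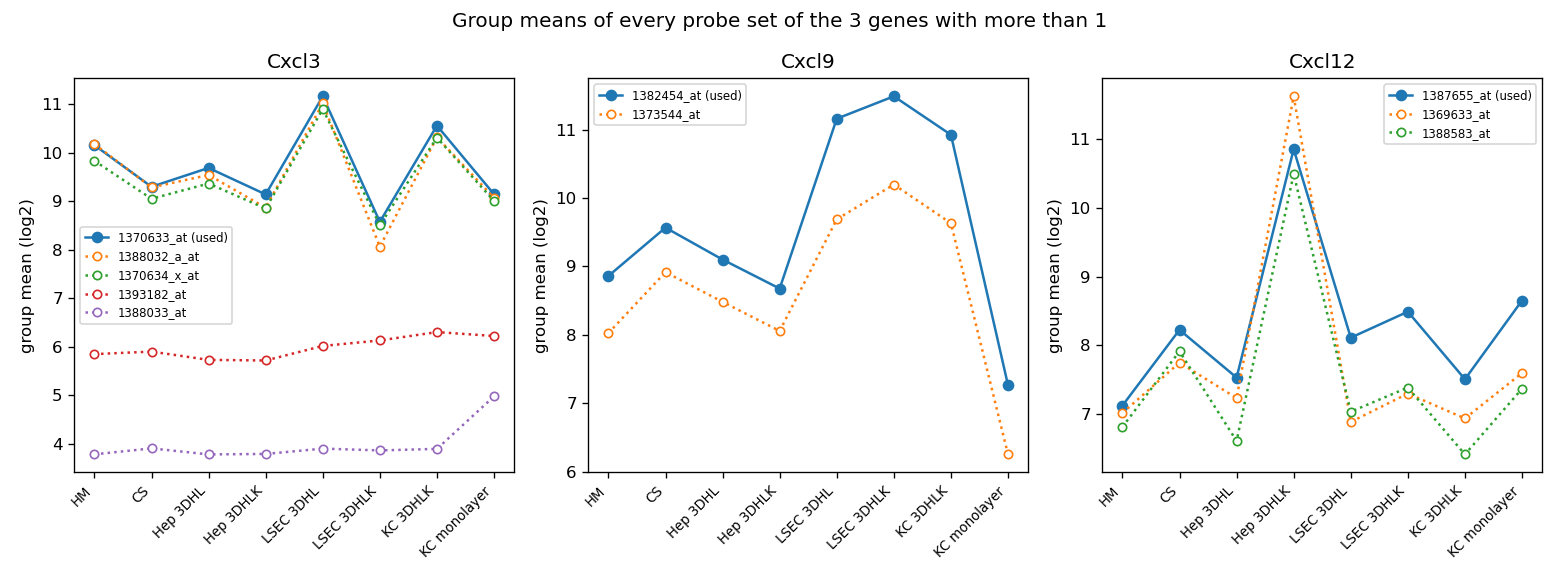
Group means (log2, y axis) of every probe set over the 8 groups (x axis) for the 3 chemokines with more than 1 probe set; filled points and solid lines mark the probe set that was used. All 3 probe sets of Cxcl12 peak in hepatocytes of 3DHLK and both of Cxcl9 are lowest in KC monolayers, whereas 2 of the 5 probe sets of Cxcl3 lie low and follow another course.

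The difference between the change in LSEC fractions and the change in hepatocytes was tested for each gene. It was negative and called for Cxcl12 (-2.95, standard error 0.50, adjusted p = 0.000324), Cxcl3 (-2.04, 0.35, adjusted p = 0.000378), Cxcl11 (-0.92, 0.20, adjusted p = 0.00401) and Cxcl16 (-0.68, 0.19, adjusted p = 0.0236). These are 4 of the 9 genes, where 6.81% of all genes were called in the negative and 3.51% in the positive direction, and 0 of the 9 were called positive. The hepatocyte means of Cxcl11, 5.66 in 3DHL and 5.24 in 3DHLK, have an unknown distance from background, which limits the reading of its difference. For Cxcl16 neither fraction's own change was called, at -0.40 and 0.29, but that of the LSEC fraction was called after housekeeping centring (-0.43, adjusted p = 0.0389), in a fit without KC monolayers (adjusted p = 0.0297) and without LSEC replicate 1 of 3DHLK (-0.50, adjusted p = 0.0435). For Cxcl10 the difference was -0.13 (95% interval -0.54 to 0.27) and for Cxcl2 -0.74 (-1.61 to 0.13), the latter at -1.20 (adjusted p = 0.03) without hepatocyte replicate 2 of 3DHL. The second probe set of Cxcl9 had a called positive difference of 0.93 (adjusted p = 0.0014), and that used had 0.75 (0.03 to 1.48, adjusted p = 0.189).

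The comparison of the KC fraction of 3DHLK with KC monolayers was uniform for the interferon-induced members and divided for the neutrophil-attracting ones. All 3 interferon-induced genes were higher in the model. Cxcl9 was 12.7-fold higher (3.66, standard error 0.28, adjusted p = 1.44e-10), Cxcl11 was higher by 2.82 (0.16, adjusted p = 7.81e-13) and Cxcl10 was 2.40-fold higher (1.27, 0.15, adjusted p = 2.83e-07). Cxcl2 (-2.06, 0.33, adjusted p = 1.23e-05) and Cxcl1 (-0.42, 0.16, adjusted p = 0.0304) were lower, as were Cxcl16 (-1.95, 0.15) and Cxcl12 (-1.15, 0.39), and Cxcl3 was higher by 1.41 (0.28, adjusted p = 0.000125). Cxcl6 differed by 0.17 (95% interval -0.21 to 0.55). The filter on low values removes Cxcl11 and Cxcl6, and without detection calls their distance from background is unknown, so no fold is given for them. In total 4 of the 9 genes were higher, a share near the 44.5% of all genes that were called higher, and 4 were lower, where 20.8% were called lower. With arrays centred on housekeeping genes the median of all genes shifted by -0.46 and the share of higher calls among all calls went from 68.2% to 39.3% (56.7% after cyclic loess), while the calls of the 8 genes kept their directions. The call of Cxcl1 was lost in a fit of the compared arrays alone (adjusted p = 0.192) and without either KC fraction array or KC monolayer replicate 1 or 3 (-0.39 to -0.44), and that of Cxcl12 without KC fraction replicate 1 or KC monolayer replicate 1 (-0.91 and -0.90). The median over the 9 genes was 0.17 and over all genes 0.27.

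The groups of this comparison also differ in day, in culture and in their markers. Macrophage markers averaged 6.80 to 7.07 in the KC fraction and 12.01 to 12.32 in KC monolayers, with 17 of 17 lower, and hepatocyte markers averaged 12.29 to 12.36 and 6.97 to 7.62, with 19 of 19 higher. Macrophage expression, culture and day cannot be told apart here, and the part of the markers in these changes was not tested. Of 10 inflammatory cytokine and receptor genes 6 were lower, with Il1b at -6.46 and Il1a at -4.70, and 3 were higher, with the receptors Il1r1 at 2.05 and Tnfrsf1a at 1.96. Of 13 NF-kB pathway genes 3 were lower and 3 higher. Nfkbiz (-3.35) and the NF-kB inhibitor Nfkbia (-1.19) were among the lower ones, and Chuk (1.16) and Relb (0.44) among the higher ones. Of 22 interferon-stimulated genes 10 were higher and 5 lower, with Ifitm3 at 3.88 and Bst2 at 2.69 against Ifit3 at -2.51 and Gbp2 at -1.96. The interferon regulatory factor Irf7 was higher by 1.499 and Irf8, a factor of myeloid cells, changed by -4.30. Cxcr4 changed by -7.23, the platelet factor gene Pf4 by -4.81, and Dpp4, whose protease trims Cxcl9, Cxcl10 and Cxcl11, was higher by 5.02. Of 8 genes of chemokine processing and mRNA decay 2 were higher and 5 were lower.

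Between LSEC fractions and hepatocytes of 3DHL, 7 of the 9 genes were higher in the LSEC fraction, where 18.5% of all genes were called higher, and 0 were lower, where 21.9% were called lower. Cxcl2 was higher by 3.47 (standard error 0.30, adjusted p = 1.34e-08), Cxcl9 was 4.17-fold higher (2.06, 0.25), and Cxcl11 was higher by 2.64 (0.14). No fold is given for Cxcl2, whose hepatocyte mean of 6.12 has an unknown distance from background. Cxcl1 was higher by 1.68, Cxcl3 by 1.48, Cxcl10 by 1.36 and Cxcl6 by 0.45 (adjusted p = 0.0325). The call of Cxcl6 was lost after cyclic loess (0.27, adjusted p = 0.184), after housekeeping centring (0.44, adjusted p = 0.0604) and without LSEC replicate 3 or any 1 of the hepatocyte arrays (0.34 to 0.47). Cxcl12 (0.58, 95% interval -0.15 to 1.31) and Cxcl16 (0.33, 0.05 to 0.61) were not called, though both passed in a fit of the compared arrays alone (adjusted p = 0.0118 and 0.00949). The other probe sets of Cxcl12 differed by -0.35 and 0.43, and neither was called. The median over the 9 genes was 1.48 and over all genes 0.02. Nfkbia, an NF-kB inhibitor that NF-kB itself induces, and the atypical IkB gene Bcl3 were among the 5 of 13 pathway genes that were higher, at 1.13 and 0.86, and 2 were lower, Nfkbiz at -0.67 and the adaptor Traf6 at -0.38. Of 10 inflammatory cytokine and receptor genes 4 were higher, with Tnf at 1.10 and Csf3 at 0.67, and 2 were lower, Il1r1 at -0.66 and Il18 at -0.46. Ackr3 changed by -3.75, and interferon-stimulated genes were divided, with 5 of 22 higher, such as Bst2 at 2.49, and 5 lower, such as Gbp4 at -1.78. Endothelial markers averaged 6.13 to 6.18 in the LSEC fraction and 5.96 to 6.07 in hepatocytes, with 3 of 18 higher and 1 lower, and stellate cell and fibroblast markers 6.49 to 6.59 and 8.15 to 8.33, with 1 of 17 higher and 10 lower. Their part in these differences was not tested.

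In 3DHLK the LSEC fraction had 5 of the 9 genes higher than hepatocytes, where 34.7% of all genes were called higher, and 2 lower, where 25.7% were called lower. Cxcl9 was 7.02-fold higher (2.81, standard error 0.25, adjusted p = 5.69e-09), Cxcl2 was higher by 2.73 (0.30), and Cxcl11 by 1.73 (0.14). Again no fold is given for Cxcl2, at a mean of 5.44 in hepatocytes. Cxcl1 at 1.35 and Cxcl10 at 1.22 were also higher, and Cxcl12 at -2.37 and Cxcl16 at -0.35 were lower. The call of Cxcl16 was lost without hepatocyte replicate 1 or 3 or LSEC replicate 3 (-0.21 to -0.36). Cxcl3, at -0.57 (95% interval -1.08 to -0.05, adjusted p = 0.0529), was not called, but it was at -0.99 (adjusted p = 0.000212) without LSEC replicate 1 and at -0.73 (adjusted p = 0.0275) without hepatocyte replicate 2. Cxcl6 differed by 0.35 (0.01 to 0.69, adjusted p = 0.0696). Ackr3 differed by -5.92 and Mmp2 by -4.03, and of 8 genes of chemokine processing and mRNA decay 4 were higher and 4 lower. Stellate cell and fibroblast markers, at 6.46 to 6.72 in the LSEC fraction and 10.14 to 10.35 in hepatocytes, had 14 of 17 lower. Macrophage markers, at 6.71 to 6.95 and 7.51 to 7.94, had 12 of 17 lower and 2 higher. Endothelial markers had 9 of 18 higher in the LSEC fraction and 4 lower, though their mean was lower there, at 6.24 to 6.31 against 6.36 to 6.44. Hepatocyte markers had 10 of 19 higher and 1 lower. The part of these markers in the chemokine differences was not tested.

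The LSEC fraction of 3DHLK was also compared with the KC fraction of the same culture. Of the 9 genes 1 was higher in LSECs, where 9.73% of all genes were called higher, and 3 were lower, where 5.35% were called lower. Cxcl3 differed by -1.98 (standard error 0.28, adjusted p = 2.06e-05), Cxcl16 by -1.14 (0.15), Cxcl11 by -0.51 (0.16, adjusted p = 0.0296) and Cxcl10 by 0.73 (0.15, adjusted p = 0.00192). Cxcl1 differed by 0.12 (95% interval -0.23 to 0.46) and Cxcl2 by -0.36 (-1.05 to 0.32). Cxcl6 differed by 0.11 (-0.27 to 0.49), Cxcl9 by 0.56 (-0.01 to 1.14) and Cxcl12 by 0.98 (0.17 to 1.80, adjusted p = 0.102). The call of Cxcl11 was lost without KC replicate 1 (-0.33) or LSEC replicate 3 (-0.42), after cyclic loess (-0.41) and after housekeeping centring (-0.49), and that of Cxcl10 without KC replicate 2 (0.42). Endothelial markers had 0 of 18 higher and 10 lower in the LSEC fraction, against the labels, and hepatocyte markers had 14 of 19 higher. Their part in these differences was not tested.

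Against the same KC fraction the hepatocytes had 7 of the 9 genes lower, where 30.6% of all genes were called lower, and 1 higher, where 25.9% were called higher. The higher gene was Cxcl12 (3.35, standard error 0.39, adjusted p = 6.1e-07). Cxcl2 differed by -3.09, Cxcl9 by -2.25, Cxcl11 by -2.24, Cxcl3 by -1.42, Cxcl1 by -1.23, Cxcl16 by -0.79 and Cxcl10 by -0.50, and Cxcl6 by -0.24 (95% interval -0.62 to 0.14). The call of Cxcl10 was lost without replicate 1 of the KC fraction, at -0.19. Stellate cell and fibroblast markers moved with Cxcl12, with 12 of 17 higher in hepatocytes and a median of 3.99. Macrophage markers had 11 of 17 higher and 3 lower, and endothelial markers 4 of 18 higher and 13 lower. Their part in these differences was not tested.

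Among hepatocytes alone, CS against HM had 4 of the 9 genes higher, where 11.1% of all genes were called higher, and 3 lower, where 10.7% were called lower. Each role was divided in its calls. The distance of Cxcl6 and Cxcl11 from background is unknown, and the Cxcl11 mean in CS, 4.68, was near that of KC monolayers, 4.65. Cxcl1 (0.82, standard error 0.15, adjusted p = 0.000305) and Cxcl2 (0.91, 0.30, adjusted p = 0.0307) were higher in CS, and Cxcl3 (-0.86, 0.25, adjusted p = 0.015) and Cxcl6 (-1.16, 0.16, adjusted p = 1.98e-05) were lower. Cxcl9 (0.71, 0.25, adjusted p = 0.0445) was higher, Cxcl11 (-0.98, 0.14, adjusted p = 2.42e-05) was lower, and Cxcl10 differed by 0.02 (95% interval -0.26 to 0.31), and Cxcl16 by -0.29 (-0.57 to -0.01, adjusted p = 0.144). Cxcl16 was called lower after housekeeping centring (-0.37, adjusted p = 0.0409) and without CS replicate 2 (-0.43, adjusted p = 0.0369). Cxcl12 was higher by 1.10 (0.35, adjusted p = 0.0271), and by 0.54 (adjusted p = 0.228) without CS replicate 1. That array had the highest stellate cell and fibroblast marker mean of the CS arrays, at 9.37 beside 8.07 and 8.58, and over the groups 10 of 17 of these markers were higher in CS and 1 was lower, with a median of 0.60. Hepatocyte markers had 7 of 19 higher and 0 lower. The part of these markers was not tested. Of the interferon-stimulated genes, Gbp4 (-3.76) and Gbp2 (-2.25) were among 6 of 22 that were lower, and Bst2 (1.14) and Oas1a (0.55) were higher. The calls of Cxcl2, Cxcl3, Cxcl9 and Cxcl12 were each lost when 1 array or another was left out, and the number of called genes fell from 7 to 4 without HM replicate 2, HM replicate 3 or CS replicate 3.

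The hepatocytes of 3DHL against HM had 1 of the 9 genes higher, where 7.04% of all genes were called higher, and 2 lower, where 4.7% were called lower. Cxcl6 changed by -1.43 (standard error 0.16, adjusted p = 3.43e-06), Cxcl16 changed by -0.57 (0.14, adjusted p = 0.00754), and Cxcl10 was higher by 0.99 (0.14, adjusted p = 4.12e-05). The 95% interval of the difference was -0.29 to 0.29 for Cxcl11, -0.60 to 0.01 for Cxcl1, -0.98 to 0.04 for Cxcl3, -0.27 to 0.75 for Cxcl9 and -0.32 to 1.14 for Cxcl12. Cxcl3 was called lower in a fit of the compared arrays alone (-0.47, adjusted p = 0.0327). Cxcl2 differed by -0.57 (adjusted p = 0.239), and by -1.03 (adjusted p = 0.0144) without replicate 2 of the 3DHL hepatocytes, its high array. Ackr3 was higher by 2.95, and of the interferon-stimulated genes Isg15 (0.96) and Oas1a (0.74) were among 3 of 22 that were higher, with Gbp4 (-1.79) and Ifitm3 (-0.75) lower. The comparisons of CS and of 3DHL with HM share the HM arrays, so their values stand side by side only.

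Probe sets of 1 gene did not always read alike. For Cxcl3, 3 of 5 probe sets, the used one among them, took a like course over the groups and differed between LSEC fractions by -2.39 to -2.95. The other 2 lie at means of 5.97 and 3.99, 1 of them was -1.08 (adjusted p = 0.00096) in the KC comparison where the used one was 1.41, and neither was called between LSEC fractions. For LSECs against hepatocytes of 3DHLK the used one was not called (-0.57). There 1 probe set of the like course was called lower (-0.80, adjusted p = 0.019). The one with the mean of 5.97 was called higher (0.41, adjusted p = 0.019). Of the 3 concordant probe sets 1 has the suffix that the maker gives to probe sets that can bind other sequences, and Cxcl1, Cxcl2 and Cxcl3 are closely related genes. Whether they share signal was not tested. For Cxcl9 the second probe set was called in comparisons where the used one was not, being higher by 0.51 (adjusted p = 0.016) in the LSEC fraction with KCs, higher by 0.46 (adjusted p = 0.024) in 3DHL hepatocytes against HM and -0.43 (adjusted p = 0.031) in hepatocytes with KCs, and higher by 0.57 (adjusted p = 0.0087) in LSECs against KCs of 3DHLK. In that last comparison 1 other probe set of Cxcl12 was called higher, by 0.97 (adjusted p = 0.019), where the used one was not. The remaining probe set of Cxcl12 was not called in CS against HM (0.73, adjusted p = 0.062) or in the KC comparison (-0.66, adjusted p = 0.063). The used one was called in both.

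Of 7999 genes with group means spanning at least 1, the pattern of the neutrophil-attracting mean over the 8 groups was most closely followed by Cngb1 (r = 0.94), Nos1ap (r = 0.94), Bend7 (r = 0.92), Slc30a3 (r = 0.92) and Epha4 (r = 0.92). The interferon-induced mean was most closely followed by Plaat5, Dnajb3 and Sympk (r = 0.98 each) and Spata2L and Rasl10b (r = 0.97 each). None of these 10 is on the lists used here, and over 8 points a high r among so many genes is a description only.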

How the data were processed

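The authors summarised the scans by RMA in R after quality checks with Simpleaffy, and deposited the resulting log2 values, 1 per probe set and array. RMA corrects background and equalises distributions over the arrays it is run on. No RMA version is stated in the sources read. Without detection calls a dim probe set cannot be told from background, and precision rests on how many arrays a group has. Labels set the groups. Of 31099 probe sets, 57 were controls, 20832 carried 1 gene symbol in the platform annotation, 436 several and 9831 none here, which left 14218 genes. Each gene kept the probe set with the largest average over 23 arrays. A limma 3.58.1 model (R 4.3.3) with 8 group means gave the contrasts by eBayes, adjusted over all genes by Benjamini-Hochberg. "Called" means an adjusted p under 0.05, and intervals are 95%.

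Members, gene lists and tests were chosen with earlier results of these data known. The text names all 9 members, up to 2 called rises and 2 called falls per pathway list and comparison, and the 5 genes outside the members most correlated with each mean, with uncharacterised loci skipped. The marker genes and Cxcr4 in hepatocytes of 3DHLK fall outside this rule and were named after their values were seen. Promoters come from RefSeq (GRCr8). Alternatives were a fit of only the arrays compared, a block for replicate number, averaging a gene's probe sets, dropping genes under the 30th percentile, cyclic loess, housekeeping centring, eBayes with trend and robust, a fit without KC monolayers, and omission of each array. The code was tested on simulated data. Python 3.11.15 with matplotlib 3.10.9 made the plots.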

Additional observations from a re-analysis of the deposited data

Results flagged for a closer look

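The change from 3DHL to 3DHLK differed between LSEC fractions and hepatocytes for 4 chemokines by the limma test of that difference (log2, LSEC change minus hepatocyte change). It was -2.95 for Cxcl12, whose own change was called in hepatocytes, -2.04 for Cxcl3 and -0.92 for Cxcl11, whose own changes were called in the LSEC fraction, and -0.68 for Cxcl16, whose own change was called in neither, although that of the LSEC fraction was called after housekeeping centring (-0.43), without KC monolayers (-0.40) and without LSEC replicate 1 of 3DHLK (-0.50). The call of Cxcl16 was lost without hepatocyte replicate 1 of 3DHL, LSEC replicate 2 of 3DHL or LSEC replicate 3 of 3DHLK, at -0.55 to -0.65. For Cxcl11 the hepatocyte means, 5.66 in 3DHL and 5.24 in 3DHLK, have an unknown distance from background.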

How the results depend on the processing

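With the replicate number as a block the number of called chemokines was as without it in each of the 10 comparisons, such as 7 for CS against HM and 4 for the LSEC fractions. The numbers do not pair the samples: same-numbered arrays deviated together (correlation over 0.1) in 5 of 24 pairs, from -0.35 to 0.33. Leaving out 1 array at a time gave 4 to 6 called chemokines for CS against HM, where 7 were called, and kept the count within 1.5 times in the other comparisons. Over 57 results (called differences and the spans of genes with several probe sets) the other settings gave 416 values, of which 409 kept direction and side of the threshold, 6 lost the call, 0 reversed and 1 moved, the span of Cxcl3 given below. Leaving out arrays gave 328 values, with 293 kept, 35 calls lost and 0 reversed. Of 36 differences that were not called, the other settings gave 278 values, of which 19 were now called and 5 had turned sign, and leaving out arrays gave 239, of which 7 were called and 13 had turned sign. The cause of these changes was not tested, and fits that leave out arrays rest on fewer of them. The filter on low values removed Cxcl6 and Cxcl11. Averaging the probe sets brought the span of Cxcl3 from 2.59 to 1.57. The share of higher calls among all called genes moved by over 10 points after housekeeping centring for CS against HM (50.8% to 37.1%), 3DHL hepatocytes against HM (60.0% to 47.2%), LSECs against hepatocytes of 3DHL (45.7% to 35.1%), hepatocytes against KCs (45.9% to 57.4%) and, after cyclic loess, hepatocytes of 3DHLK against 3DHL (67.2% to 77.8%).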
